A study of Mus musculus with 16 samples.

Results

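The 10 genes described here, Ptgs1, Ptgs2, Hpgds, Tbxas1, Hpgd, Ptger2, Ptger3, Ptger4, Alox5 and Alox5ap, encode enzymes and receptors of the prostaglandin and leukotriene pathways, and they were taken by symbol from the 55385 genes listed in the count table. All 10 were listed, and 9 of them were among the 14513 genes with enough reads to be tested. Ptger3 and Ptgs2 were put on the list because they had been seen to change in these same libraries, so their values are given as a description, without a test. The other 8 genes were chosen as partners in the pathway.

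RNA was sequenced from CD11b+ cells isolated with magnetic beads from perfused brains of female mice at 20 weeks of age, in 4 libraries for each of 4 genotypes. CD11b is an integrin subunit on microglia, the resident macrophages of the brain, and also on other macrophages, monocytes and neutrophils, so the bead selection takes all of these. WT mice carried both copies of Card9, which encodes a signalling adaptor of myeloid cells, and no transgene. Mice labelled Card9-/- carried a germline deletion of Card9, which affects all cells. 5xFAD mice carried human transgenes with familial Alzheimer's disease mutations, which are driven by a neuronal promoter and deposit amyloid, on a Card9+/+ background, and Card9-/-5xFAD mice carried both the transgenes and the deletion. All 4 genotypes came from crosses of the same stocks with C57BL/6J mice. The meninges and the choroid plexus were taken off before the brains were dissociated. The sources used here do not state how many animals each library holds, so p-values measure the spread between these libraries.

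Prostaglandins are made when arachidonic acid, released from membrane lipids by phospholipases, is oxidized by the cyclooxygenases to prostaglandin H2, which terminal synthases turn into prostaglandin D2, prostaglandin E2, prostacyclin or thromboxane. Leukotrienes start from the same fatty acid through arachidonate 5-lipoxygenase and the membrane protein that presents the fatty acid to it. In the brain, microglia are a major source of cyclooxygenase-1 and of prostaglandin D2, and prostaglandin E2 acts on them through receptors that either raise or lower cyclic AMP.

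To show the regulatory sequence next to the genes whose values follow, the 250 bases just upstream of the RefSeq transcription start are printed for both cyclooxygenases, for the prostaglandin D2 synthase and for the prostaglandin E2 receptors that were detected, in GRCm38.p6 coordinates and 5' to 3' on the strand of the gene. Capitals mark matches, on either strand, to 4 motifs linked to inflammatory or myeloid transcription: an NF-kB type motif (GGGNNNNNCC), a cyclic AMP response element core (TGACG), an AP-1 motif (TGANTCA) and an ETS core (GAGGAA). The windows were chr2:36230176-36230425 (plus strand) for Ptgs1, chr1:150099781-150100030 (plus) for Ptgs2, chr6:65144731-65144980 (minus) for Hpgds, chr3:157566626-157566875 (plus) for Ptger3 and chr15:5244188-5244437 (minus) for Ptger4.
Ptgs1: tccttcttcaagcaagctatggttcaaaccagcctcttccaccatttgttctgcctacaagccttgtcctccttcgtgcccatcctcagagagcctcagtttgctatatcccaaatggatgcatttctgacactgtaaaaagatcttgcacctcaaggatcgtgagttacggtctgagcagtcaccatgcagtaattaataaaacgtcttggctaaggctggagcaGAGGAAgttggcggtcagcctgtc
Ptgs2: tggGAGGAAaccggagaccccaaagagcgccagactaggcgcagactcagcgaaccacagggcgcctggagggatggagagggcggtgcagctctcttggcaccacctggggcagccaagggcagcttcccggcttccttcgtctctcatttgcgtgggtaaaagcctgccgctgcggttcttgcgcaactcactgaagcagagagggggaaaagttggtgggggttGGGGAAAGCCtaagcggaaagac
Hpgds: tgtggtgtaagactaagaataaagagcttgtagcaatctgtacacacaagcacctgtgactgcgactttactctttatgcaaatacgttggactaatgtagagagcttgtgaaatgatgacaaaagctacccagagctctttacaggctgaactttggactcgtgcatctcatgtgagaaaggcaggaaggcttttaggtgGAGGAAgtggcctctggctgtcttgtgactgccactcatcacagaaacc
Ptger3: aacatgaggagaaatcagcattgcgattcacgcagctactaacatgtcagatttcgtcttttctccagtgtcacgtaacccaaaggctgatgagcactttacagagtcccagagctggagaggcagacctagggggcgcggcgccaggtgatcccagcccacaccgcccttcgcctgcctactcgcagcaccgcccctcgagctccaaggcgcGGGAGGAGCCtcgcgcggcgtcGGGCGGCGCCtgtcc
Ptger4: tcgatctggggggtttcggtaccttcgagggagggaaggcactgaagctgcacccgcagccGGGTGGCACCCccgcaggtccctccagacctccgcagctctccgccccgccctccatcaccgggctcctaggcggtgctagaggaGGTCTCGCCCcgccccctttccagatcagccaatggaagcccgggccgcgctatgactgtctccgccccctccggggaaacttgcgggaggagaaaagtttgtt

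Of the 10 genes, 9 had an entry in the RefSeq table of promoters. The ETS core was present upstream of 6 of these 9 genes (66.7%), Ptgs1, Ptgs2, Hpgds, Hpgd, Tbxas1 and Alox5, all of which encode enzymes, and in 23.1% of the 27025 promoters of the table. The windows of the receptor genes Ptger2, Ptger3 and Ptger4 held no match to it. The RefSeq start used for Tbxas1 lies 43582 bases from the 5' end of the gene in GENCODE, and the other starts 0 to 178 bases, so the Tbxas1 window may not be its main promoter. The NF-kB type motif was found in 4 of 9 windows (44.4%) and in 45.4% of all promoters, with 1 match 23 bases before the start of Ptgs2 and 2 matches close to the start of Ptger3. The matches of the NF-kB type motif upstream of Ptger4 include a pair on opposite strands that overlap. An AP-1 match was seen in 1 window, that of Tbxas1 (6.87% of all promoters), and the cyclic AMP core in none (17.9% of all promoters). These matches describe the letters of the windows and not binding in these cells.

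Each library held between 2970148 and 19333325 reads assigned to genes. Values are given as CPM, reads per 1000000 assigned reads, with library sizes scaled by the trimmed mean of M values (TMM). All 10 microglia markers examined, among them Tmem119, P2ry12 and Sall1, were detected in every library. In each genotype 1 library stood apart, with a summed microglia marker level of 14090 to 16340 CPM against 22710 to 37330 CPM in the other 12 libraries. These were WT replicate 1, Card9-/- replicate 4, 5xFAD replicate 1 and Card9-/-5xFAD replicate 4, and results are also given without them. Reads on Card9 itself ranged from 13.6 to 51.4 CPM in WT and from 16.7 to 34.8 CPM in the libraries labelled Card9-/-. In 5xFAD they ranged from 15.6 to 33.5 CPM, with 9.73 to 33.7 CPM in the libraries labelled Card9-/-5xFAD. The ranges overlap, and counts per gene do not show whether the reads lie in deleted or retained exons, so the Card9 genotype of a library is known here only from its label, on which each Card9 difference below depends.

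Divided by exon length, which allows genes to be compared with each other, Hpgd, Ptgs1 and Hpgds were the highest of the 10 genes and the receptors and Ptgs2 the lowest. Hpgd, which encodes the dehydrogenase that inactivates prostaglandins, had the highest mean level, 467 CPM per kb, above 99.2% of the genes tested. Ptgs1, encoding the constitutive cyclooxygenase-1, followed at 178 CPM per kb, and Hpgds, encoding the hematopoietic prostaglandin D2 synthase, at 148 CPM per kb. These 2 genes did not separate, since Ptgs1 ranged from 71.9 to 272 CPM per kb over the 16 libraries and Hpgds from 102 to 210 CPM per kb.

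Alox5ap, which encodes the protein that presents arachidonic acid to 5-lipoxygenase, was at 67.2 CPM per kb. Tbxas1, encoding thromboxane A synthase, was at 43.1 CPM per kb and overlapped with Alox5ap (ranges of 23.0 to 59.8 and 38.6 to 96.3). Alox5, encoding 5-lipoxygenase, was lower at 15.7 CPM per kb. The receptor genes Ptger3 and Ptger4 (the prostaglandin E2 receptors EP3 and EP4) had means of 1.75 and 1.60 CPM per kb. Ptgs2, the inducible cyclooxygenase-2, was at 0.719 CPM per kb, so the 2 cyclooxygenase genes stood at opposite ends of the list. Ptger2, encoding the EP2 receptor, was the lowest with 0.0690 CPM per kb.

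**Figure D1:**
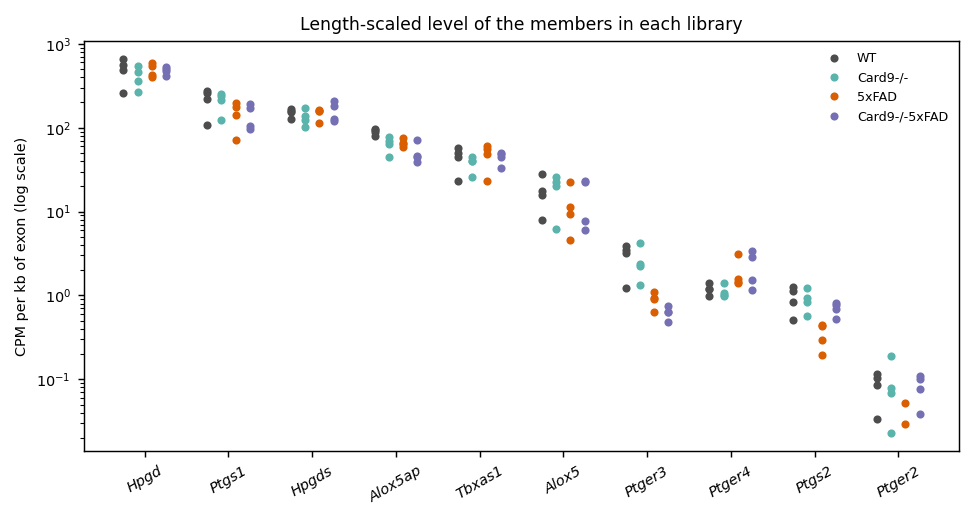
Level of each of the 10 genes in each of the 16 libraries, in CPM per kb of exon on a log scale, colored by genotype and ordered by mean. By mean over the 16 libraries Hpgd, Ptgs1 and Hpgds lie at the top and Ptgs2 and Ptger2 at the bottom, and 2 libraries with no Ptger2 read are not drawn.

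Ptger3 was the gene of the list with the largest difference between mice with and without the transgenes. It lies on chromosome 3 from 157566892 to 157645888 (GRCm38, plus strand) and encodes EP3, a receptor that lowers cyclic AMP through Gi. In WT the 4 libraries had 7.04, 18.2, 21.8 and 19.7 CPM, and in 5xFAD they had 3.64, 5.35, 5.22 and 6.27 CPM. The libraries labelled Card9-/- had 12.8, 13.6, 23.9 and 7.52 CPM, and those labelled Card9-/-5xFAD had 2.76, 4.22, 3.65 and 3.60 CPM. All 8 libraries with the transgenes were below all 8 libraries without them, as was the case for 0.469% of all genes tested, and the lowest value without the transgenes belonged to the WT library with few microglia markers.

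The fold changes of Ptger3 were similar on both Card9 backgrounds. It was 3.26-fold lower in 5xFAD than in WT (log2 fold change -1.71, SE 0.39) and 4.10-fold lower in Card9-/-5xFAD than in Card9-/- (-2.03, SE 0.40), in comparisons that share no library. Without the 4 libraries that stood apart the log2 fold changes were -1.79 (SE 0.29) and -2.23 (SE 0.30). The difference between Card9-/-5xFAD and 5xFAD was smaller than these, at a log2 fold change of -0.53 (SE 0.39), and the ranges of these 2 genotypes overlapped. Counts per gene do not separate the splice forms of EP3. In bulk RNA, fewer cells of a type and less RNA per cell cannot be told apart. The summed level of 8 border macrophage markers moved in the same direction, from 1116 to 1748 CPM in WT and from 1015 to 1957 CPM in Card9-/- to between 627 and 869 CPM in 5xFAD and between 433 and 1834 CPM in Card9-/-5xFAD, and its part in the Ptger3 values was not tested. The ranges of the summed microglia markers overlapped in all 4 genotypes.

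Ptger4, on chromosome 15 from 5206661 to 5244187 (minus strand), encodes EP4, a receptor that raises cyclic AMP, and its values went the other way. The WT libraries had 6.51, 9.24, 7.83 and 8.02 CPM, and the 5xFAD libraries had 9.40, 10.4, 9.53 and 20.7 CPM. The libraries labelled Card9-/- had 6.72, 9.47, 7.17 and 6.54 CPM, and those labelled Card9-/-5xFAD had 18.9, 22.4, 10.2 and 7.61 CPM. Every 5xFAD library was above every WT library, by a narrow margin for 3 of them, whereas 1 Card9-/-5xFAD library lay within the Card9-/- range.

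Averaged over both Card9 genotypes, Ptger4 was 1.77-fold higher with the transgenes (log2 fold change 0.83, SE 0.25, adjusted p = 0.0627 by edgeR's quasi-likelihood test with Benjamini-Hochberg adjustment). This passed the threshold of 0.1. Over 27 alternatives the adjusted p lay between 0.00361 and 0.157, and 20 of these values were under 0.1. A threshold of 0.05 is among the 27, and 0.0627 does not pass it. The highest value was that without a filter on low counts, which lost the call. The call was also lost when WT replicate 3, WT replicate 4, Card9-/- replicate 1, Card9-/- replicate 3, Card9-/-5xFAD replicate 1 or Card9-/-5xFAD replicate 2 was left out, with an adjusted p of at most 0.134. Within each background alone the increase was 0.66 (SE 0.36, adjusted p = 0.534) in 5xFAD against WT and 0.99 (SE 0.36, adjusted p = 0.243) in Card9-/-5xFAD against Card9-/- by the same test, and neither passed. The second of these passed under 5 of 29 alternatives, over which its adjusted p ran from 0.0255 to 0.4998. Among the 5 were the replicate number as a block within each Card9 genotype (0.92, adjusted p = 0.049) and the 12 libraries (1.17, adjusted p = 0.0501). These 2 settings call 20.4% and 16.7% of all genes. Ptger4 shares 1097 exon bases with genes on the other strand, among them Ttc33, whose own difference averaged over Card9 genotypes was 0.37 (adjusted p = 0.408).

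The order of the EP3 and EP4 receptor genes differed between mice with and without the transgenes. The length-scaled ratio of Ptger3 to Ptger4 was 1.26, 2.31, 3.26 and 2.87 in WT and 2.23, 1.68, 3.90 and 1.34 in Card9-/-. In 5xFAD it was 0.453, 0.600, 0.640 and 0.354, with values of 0.170, 0.221, 0.416 and 0.553 for Card9-/-5xFAD. Ptger3 was thus the more abundant of the pair in 8 of 8 libraries without the transgenes and in 0 of 8 libraries with them. The ratio does not depend on library scaling, but it contains the Ptger3 values for which the gene was chosen, so it was not tested.

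Ptger2, which encodes the other cyclic AMP raising receptor for prostaglandin E2, could not be compared. It had between 0 and 10 reads per library, with 2 of the 4 5xFAD libraries at 0, and did not pass the filter on low counts.

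**Figure D2:**
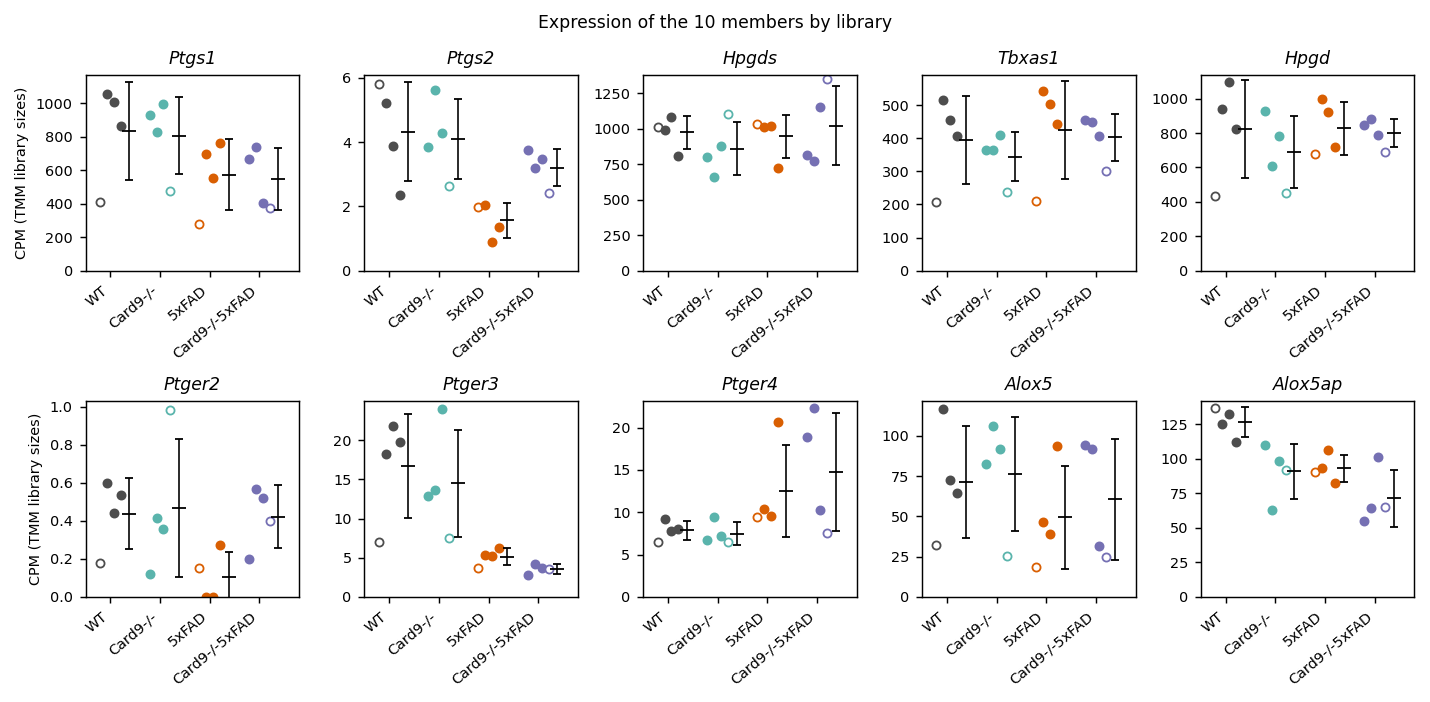
CPM of each of the 10 genes in each library, by genotype, with replicates 1 to 4 from left to right. Open circles are the 4 libraries with low microglia marker sums and bars are the mean and SD of 4 libraries, and Ptger3 is below 6.3 CPM in all libraries with the transgenes and above 7.0 CPM in all others.

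Ptgs2 lies on chromosome 1 from 150100031 to 150108227 (plus strand), and its levels were low in 5xFAD alone among the 4 genotypes. The WT libraries had 5.81, 5.22, 3.86 and 2.35 CPM and the libraries labelled Card9-/- had 3.84, 5.63, 4.27 and 2.62 CPM. The 5xFAD libraries had 1.97, 2.06, 0.899 and 1.36 CPM, from 5 to 15 reads each, and those labelled Card9-/-5xFAD had 3.75, 3.19, 3.48 and 2.40 CPM, from 6 to 38 reads. The 5xFAD libraries were below all libraries of the other 3 genotypes. The margin was small for the lowest library of each, at 2.35 CPM in WT, 2.62 CPM in Card9-/- and 2.40 CPM in Card9-/-5xFAD. In Card9-/-5xFAD against 5xFAD, 1.89% of all genes had ranges that did not overlap.

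Ptgs2 was 2.71-fold lower in 5xFAD than in WT (log2 fold change -1.44, SE 0.39), and its log2 fold change was -0.35 (SE 0.38) in Card9-/-5xFAD against Card9-/-. Between the transgenic genotypes it was 1.03 (SE 0.40) in Card9-/-5xFAD against 5xFAD. Ptgs2 is also an early response gene, induced by cell stress and during tissue dissociation. The summed level of 15 early response genes, such as Fos and Egr1, was 2591 to 9897 CPM in 5xFAD, 5315 to 9020 CPM in WT, 7600 to 10050 CPM in Card9-/- and 6652 to 12220 CPM in Card9-/-5xFAD. These ranges overlapped, and the part of the early response in the Ptgs2 values was not tested.

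Ptgs1, on chromosome 2 from 36230426 to 36252272 (plus strand), was lower on average with the transgenes on both backgrounds but varied widely between libraries. The WT libraries had 413, 1055, 1007 and 866 CPM and the 5xFAD libraries had 279, 695, 555 and 760 CPM. The libraries labelled Card9-/- had 932, 828, 993 and 474 CPM, and those labelled Card9-/-5xFAD had 668, 740, 405 and 372 CPM. The lowest library of each genotype was the one with the low microglia marker sum, and the ranges of each transgenic genotype and its control overlapped.

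The log2 fold change of Ptgs1 was -0.54 (SE 0.39, adjusted p = 0.649 by edgeR's quasi-likelihood test with Benjamini-Hochberg adjustment) in 5xFAD against WT and -0.56 (SE 0.39, adjusted p = 0.601) in Card9-/-5xFAD against Card9-/-. Averaged over Card9 genotypes it was -0.55 (SE 0.27, adjusted p = 0.241), with a 95% interval from -1.13 to 0.03. In the 12 libraries without those that stood apart this became -0.54 (SE 0.16, adjusted p = 0.0292), and with the replicate number as a block within each Card9 genotype, a fit added after the data were seen that calls 41.9% of all genes, it was -0.56 (SE 0.15, adjusted p = 0.0140). With that block Ptgs1 also passed in Card9-/-5xFAD against Card9-/- (-0.57, adjusted p = 0.0956, with 20.4% of all genes called). With 1 block per replicate number over all 4 genotypes the averaged difference did not pass (adjusted p = 0.246). The adjusted p of the averaged difference ran from 0.0140 to 0.460 over 27 alternatives, of which 4 passed.

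The genes for prostaglandin D2 and thromboxane synthesis and for prostaglandin breakdown did not pass in any comparison. Hpgds lies on chromosome 6 from 65117293 to 65144908, Tbxas1 on chromosome 6 from 38875404 to 39084585 and Hpgd on chromosome 8 from 56294585 to 56321043. Hpgds ranged from 658 to 1349 CPM over all libraries, Tbxas1 from 209 to 544 CPM and Hpgd from 435 to 1098 CPM. Averaged over Card9 genotypes, the log2 difference with the transgenes was 0.10 for Hpgds (95% interval -0.30 to 0.50), 0.16 for Tbxas1 (-0.35 to 0.67) and 0.11 for Hpgd (-0.35 to 0.57). Within Card9-/-5xFAD against Card9-/- alone the intervals were wider, with upper bounds of 0.82, 0.94 and 0.87 in the same order. Within genotypes Tbxas1 was the steadiest of the 9 genes once the 4 libraries were left out, with a standard deviation of 0.13 in log2 CPM against a median of 0.42 over all genes tested.

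The leukotriene genes were lower on average with the transgenes and did not pass either. They lie on chromosome 6 from 116410077 to 116461178 (Alox5, minus strand) and on chromosome 5 from 149264767 to 149288153 (Alox5ap, plus strand). Alox5 had 32.2, 117, 72.5 and 64.2 CPM in WT and 18.6, 46.3, 38.9 and 93.7 CPM in 5xFAD. In the libraries labelled Card9-/- it had 82.3, 106, 91.8 and 25.5 CPM, and in those labelled Card9-/-5xFAD 94.1, 91.5, 31.8 and 24.8 CPM. It was the most variable of the 9 genes, with a within-genotype standard deviation of 0.92 in log2 CPM, and its log2 fold changes were -0.53 (SE 0.56) in 5xFAD against WT and -0.33 (SE 0.56) in Card9-/-5xFAD against Card9-/-.

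Alox5ap was more even than Alox5. It had 137, 125, 132 and 112 CPM in WT, 90.5, 93.1, 106 and 82.7 CPM in 5xFAD, 110, 63.1, 98.6 and 91.9 CPM in Card9-/- and 54.9, 64.1, 101 and 64.9 CPM in Card9-/-5xFAD. WT was the highest genotype, with all 4 libraries above all libraries of the other 3 genotypes, and between Card9-/- and WT the ranges did not overlap for 2.66% of all genes. Its log2 fold change was -0.44 (SE 0.25, adjusted p = 0.552) in 5xFAD against WT, -0.35 (SE 0.25, adjusted p = 0.612) in Card9-/-5xFAD against Card9-/- and -0.48 (SE 0.25, adjusted p = 0.970) in Card9-/- against WT, by edgeR's quasi-likelihood test. Averaged over Card9 genotypes, neither Alox5ap nor Alox5 passed in the fit without a block. With the block within Card9 genotype, which calls 41.9% of all genes, Alox5ap (-0.40, adjusted p = 0.0408) and Alox5 (-0.51, adjusted p = 0.0971) passed. With 1 block per number over all genotypes neither passed (adjusted p = 0.156 and 0.599). Over 27 alternatives the averaged difference passed under 4 for Alox5ap (adjusted p from 0.0408 to 0.629) and under 1 for Alox5 (0.0971 to 0.751).

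**Figure D3:**
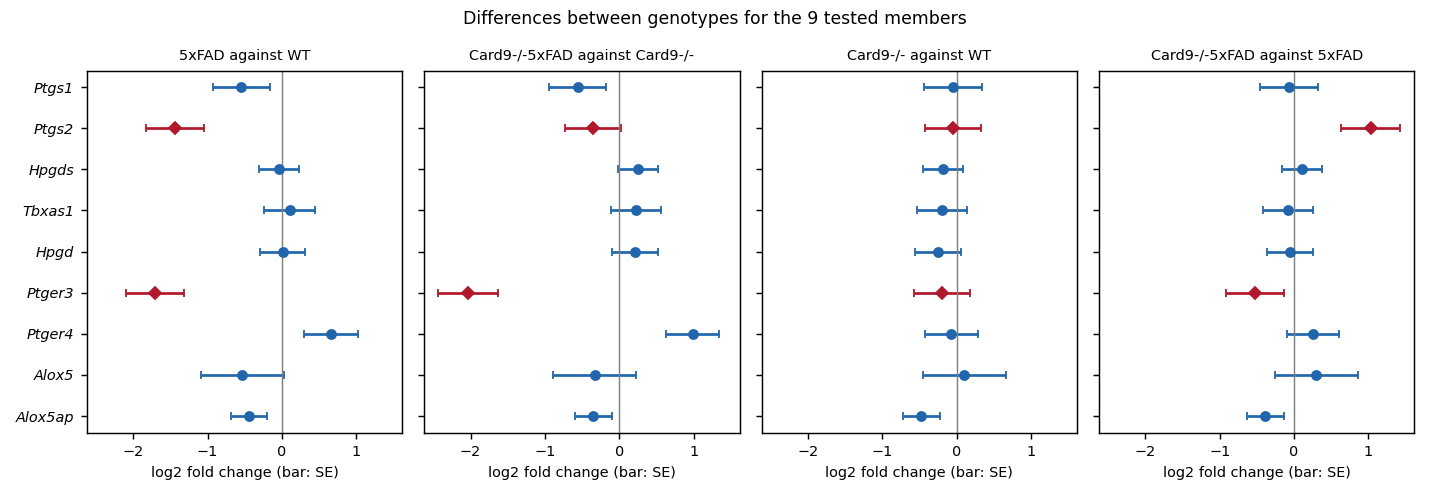
Log2 fold change with its standard error for the 9 tested genes in 4 comparisons of genotypes. Red diamonds are the 2 genes chosen because they were seen to change, with Ptger3 at -1.71 and -2.03 in the transgene comparisons, and blue circles are the other 7 genes, none of which passed in these 4 comparisons.

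Counted together, 2 of the 9 tested genes passed in 5xFAD against WT, where 2.09% of all genes tested did, and 1 of 9 passed in Card9-/-5xFAD against Card9-/-, where 1.97% did. These were Ptger3 and Ptgs2 in the first and Ptger3 in the second, the genes chosen from these comparisons, so nothing is read from the counts. Of the other 7 tested genes, 0 passed in either comparison by edgeR, with 0 and 1 at an unadjusted p under 0.05, as had 10.8% and 12.2% of all genes. With DESeq2 on all 16 libraries Ptger4 passed in Card9-/-5xFAD against Card9-/- (adjusted p = 0.0625). Averaged over Card9 genotypes 1 of these 7 genes passed, Ptger4, against 11.3% of all genes tested. With the block within Card9 genotype 4 of the 7 passed there, against 41.9% of all genes. The median log2 fold change of the 7 genes was -0.04 in 5xFAD against WT and 0.21 in Card9-/-5xFAD against Card9-/-, beside -0.15 for all genes tested in both comparisons. In 5xFAD against WT 4 of the 9 genes had ranges that did not overlap, Ptger3, Ptgs2 and Alox5ap (lower) and Ptger4 (higher), as had 8.04% of all genes. In Card9-/-5xFAD against Card9-/- this held for Ptger3 alone (7.01% of all genes). Ptger3 and Ptgs2 were chosen by their values, so nothing is read from these counts either. Among the other 7 genes, 1 was higher and 1 lower without overlap in 5xFAD against WT, and 0 in Card9-/-5xFAD against Card9-/-.

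The labelled absence of Card9 went with no passing difference among these genes. In Card9-/- against WT and in Card9-/-5xFAD against 5xFAD, 0 of 9 genes passed by edgeR, as did 0% of all genes tested, and at an unadjusted p under 0.05 there were 597 and 366 genes in all. The largest difference among the 7 genes not chosen by their values was that of Alox5ap, which averaged over transgenes was -0.43 (SE 0.17, adjusted p = 0.519), in a comparison where 0.0276% of all genes passed. For Ptger4 the interaction of Card9 genotype and transgenes was 0.33 (95% interval -0.74 to 1.39) and for Ptgs1 -0.02 (-1.17 to 1.14), intervals wide enough that a difference between the backgrounds of about the size of the transgene effects was not detectable. Ptgs1 lies on the same chromosome as Card9, 9.87 Mb from it.

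In each of the 4 libraries with low microglia marker sums Ptgs1, Tbxas1, Alox5, Hpgd and Ptger4 were below all 3 other libraries of the genotype. The share of all genes with this pattern is not given here, so it describes these libraries and is not read as particular to these genes. The ratio to the median of those 3 libraries was 0.410, 0.508, 0.402 and 0.557 for Ptgs1 and 0.445, 0.278, 0.403 and 0.271 for Alox5, in the order WT, Card9-/-, 5xFAD and Card9-/-5xFAD. Hpgds did not follow, with ratios of 1.02, 1.37, 1.02 and 1.66, and neither did Alox5ap, with ratios from 0.933 to 1.10. Ptgs2 was above the other 3 libraries in WT, within them in 5xFAD and below them in both Card9-/- genotypes. Ltc4s, which encodes leukotriene C4 synthase, was above all 3 other libraries in each genotype, with ratios of 3.86, 5.68, 1.58 and 11.03. In the same 4 libraries the summed level of 8 neutrophil markers was the highest of the genotype, at 3607, 6317, 2102 and 5988 CPM, against 490 to 2395 CPM in the other 12 libraries. So were the sums for border macrophages, monocytes, T and NK cells, astrocytes, endothelium and choroid plexus. Those for mast cells, B cells, oligodendrocytes and neurons were not the highest in every genotype. All of these libraries but 5xFAD replicate 1 also had the fewest reads of their genotype. The part of cell content or depth in these ratios was not tested. In the transgene comparisons Ltc4s had log2 fold changes of -0.49 (SE 0.80) in 5xFAD against WT and 0.14 (SE 0.80) in Card9-/-5xFAD against Card9-/-.

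**Figure D4:**
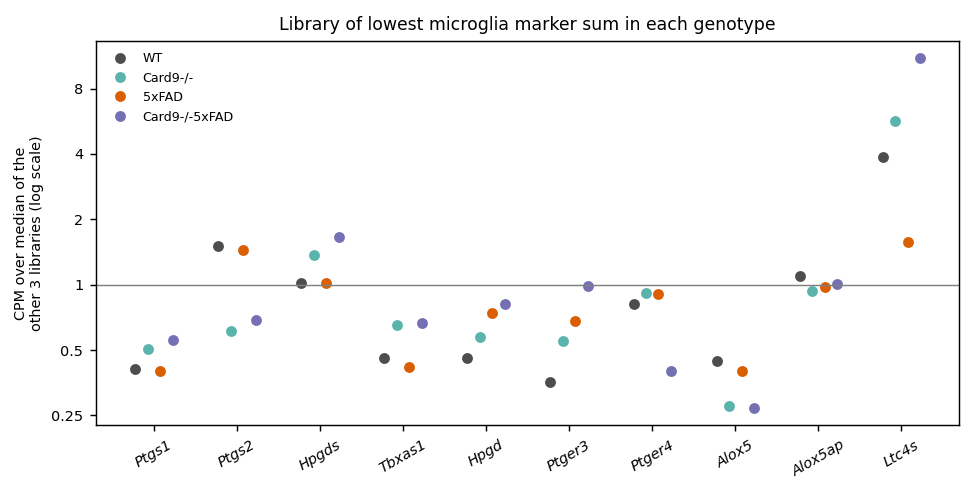
For the library with the lowest microglia marker sum in each genotype, CPM of each gene divided by the median of the other 3 libraries, on a log scale. Ptgs1, Tbxas1, Hpgd and Alox5 lie below 1 in all 4 genotypes and Ltc4s lies above 1 in all 4, up to 11.03.

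Beyond these 10 genes, 49 further genes of the 2 pathways were examined, of which 28 were tested. In 5xFAD against WT 1 of 28 passed and in Card9-/-5xFAD against Card9-/- 1 of 28, Ggt5 in both, beside 2.09% and 1.97% of all genes. Averaged over Card9 genotypes 4 of 28 passed, beside 11.3% of all genes, with Ggt5 and Ptgir lower and Ptgr1 and Mgst3 higher. With the block within Card9 genotype the counts were 7, 12 and 14 of 28, beside 16%, 20.4% and 41.9% of all genes. Their median log2 fold change was -0.11 in both backgrounds, close to the -0.15 of all genes tested.

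Ggt5 encodes the gamma-glutamyl transferase that turns leukotriene C4 into leukotriene D4. It had 41.4, 51.1, 41.3 and 34.8 CPM in WT, 15.8, 21.0, 22.8 and 26.3 CPM in 5xFAD, 47.8, 48.1, 46.8 and 32.1 CPM in Card9-/- and 24.7, 22.1, 20.5 and 24.4 CPM in Card9-/-5xFAD. All 8 transgenic libraries were below all 8 others, the same separation as that of Ptger3. It was 1.96-fold lower in 5xFAD than in WT (log2 fold change -0.97, SE 0.23, adjusted p = 0.0437 by edgeR's quasi-likelihood test with Benjamini-Hochberg adjustment) and 1.91-fold lower in Card9-/-5xFAD than in Card9-/- (-0.93, SE 0.23, adjusted p = 0.0642). Averaged over Card9 genotypes it was -0.95 (SE 0.16, adjusted p = 0.00177) and passed under all 27 alternatives. The single comparisons had an adjusted p under 0.1 in 21 and 16 of 29 alternatives. A threshold of 0.05 is among the 29, and the second comparison (0.0642) does not pass it.

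Mgst3, a microsomal glutathione transferase that can conjugate leukotriene A4, was 2.46-fold higher with the transgenes averaged over Card9 genotypes (log2 fold change 1.30, SE 0.35, adjusted p = 0.0346 by edgeR's quasi-likelihood test). Its levels were 127, 45.7, 52.3 and 35.6 CPM in WT and 184, 104, 102 and 73.8 CPM in 5xFAD, and 30.7, 21.8, 34.2 and 45.1 CPM in Card9-/- and 54.3, 54.2, 123 and 216 CPM in Card9-/-5xFAD. It was highest in the library with few microglia markers in each genotype, and without these libraries the averaged difference was 1.27 (adjusted p = 0.00261). Ptgr1, encoding a reductase that inactivates leukotriene B4 and prostaglandin metabolites, was 1.70-fold higher (0.76, SE 0.21, adjusted p = 0.0424). It ranged from 11.6 to 27.5 CPM without the transgenes and from 14.02 to 39.43 CPM with them, and its call was lost without WT replicate 4 or Card9-/- replicate 2 (adjusted p up to 0.104) and without a filter on low counts (0.135).

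Ptgir, encoding the prostacyclin receptor, was 2.95-fold lower averaged over Card9 genotypes (-1.56, SE 0.38, adjusted p = 0.0222 by the same test). It rests on few reads, from 8 to 39 per library without the transgenes and from 2 to 7 with them. The other receptors for prostaglandins D2 and F2 alpha and for thromboxane, Ptgdr, Ptgdr2, Ptgfr and Tbxa2r, had at most 6 reads in any library, and Ptger1 at most 28.

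By group, 0 of 6 tested genes of arachidonic acid release (10 listed) and 0 of 6 tested prostanoid synthases (8 listed) passed averaged over Card9 genotypes. The counts were 1 of 1 for the other prostanoid receptors (6 listed), 1 of 4 for transport and breakdown (6 listed), 2 of 7 for leukotriene enzymes (10 listed), 0 of 2 for leukotriene receptors (4 listed) and 0 of 2 for other lipoxygenases (5 listed), where 11.3% of all genes tested passed. Ptgds, encoding the lipocalin type of prostaglandin D2 synthase and lying 0.882 Mb from Card9, had 23.8, 20.0, 24.8 and 21.0 CPM in 5xFAD and 2.47, 4.11, 18.4 and 13.2 CPM in Card9-/-5xFAD (log2 fold change -1.26, SE 0.54, adjusted p = 0.993 by the same test). Ptgds is expressed by oligodendrocytes and the choroid plexus, whose summed markers were 191 to 836 and 294 to 1465 CPM in 5xFAD and 238 to 416 and 3.16 to 1206 CPM in Card9-/-5xFAD, and their part was not tested.

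**Figure D5:**
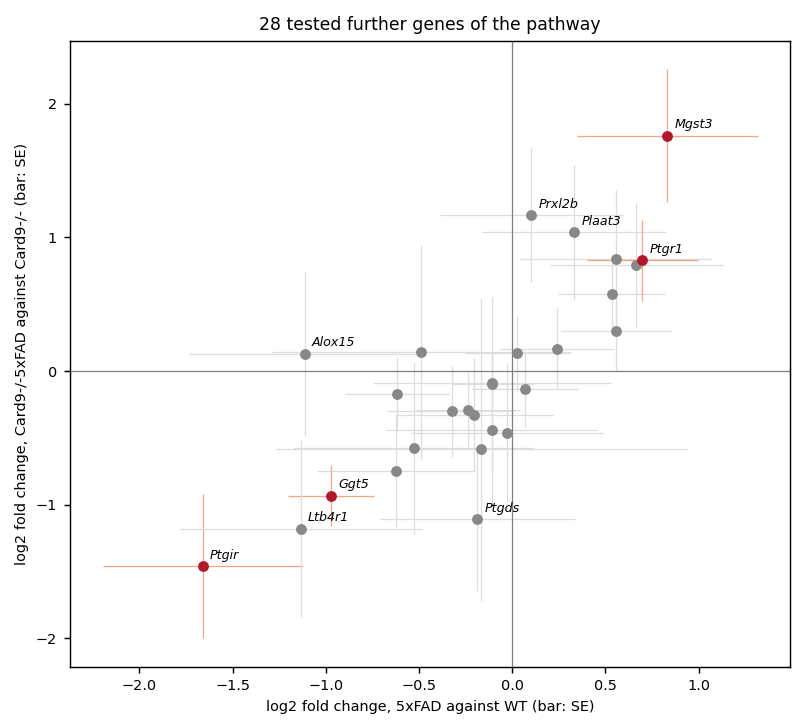
Log2 fold change of the 28 tested further pathway genes in Card9-/-5xFAD against Card9-/- (vertical) and in 5xFAD against WT (horizontal), with standard errors, in comparisons that share no library. Red points are the 4 genes that passed averaged over Card9 genotypes, Ggt5, Ptgir, Ptgr1 and Mgst3, and gene names are also given where a difference exceeds 0.95 in size.

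Over the 16 libraries genes whose log2 CPM closely resembled that of Ptger3 were Bank1 (Pearson r 0.94), P2rx1 (0.93), Tmem204 (0.92) and Rhoj (0.91). These 4 were also lower with the transgenes, with averaged log2 fold changes from -1.57 to -1.17. That direction follows from the choice itself, since Ptger3 was lower in all libraries with the transgenes and genotype means were not removed. For Ptgs2 the closest were Slfn10.ps as the table spells it (0.91), Zfp558, Ccdc162, D3Ertd751e and Zfp74 (0.77 each). After the genotype means were removed they were Slfn10.ps (0.78), Qrich2 (0.75), Zfp74 (0.72), X4930423D22Rik (0.71) and Slc10a7 (0.71), none of them an early response gene of the list examined. These are among the highest of 14513 correlations over libraries that share genotype, depth and marker content, and they are given as a description.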

How the data were processed

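Bulk RNA of CD11b+ brain cells was analysed in 16 libraries, 4 per genotype, grouped by the genotype in the labels. The authors aligned the reads to mm10 with HISAT2, filtered them with SAMtools and counted them per gene with HTSeq, and the deposited values are raw counts per gene. Versions, the annotation and the strand setting are not given in the sources used here, so reads of overlapping genes on opposite strands may not be separated.

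The 10 genes and all lists were chosen with earlier results of these data known. Counts were tested with edgeR 4.0.16 in R 4.3.3 (TMM scaling, filterByExpr with a minimum count of 10, quasi-likelihood test, Benjamini-Hochberg adjustment over 14513 genes, threshold 0.1), with all 16 libraries in 1 fit. CPM is computed from these counts and TMM library sizes. Log2 CPM used a prior count of 2. Positions and exon lengths come from GENCODE M21 (GRCm38) and promoter sequences from RefSeq (GRCm38.p6). The script was tested on simulated data with known changes. Beside the 10 genes, pathway genes were named where they passed in any comparison or completed a short count, and for Ptger3 and Ptgs2 the 5 most alike genes, of which 1 is not reported here. Ptgds, Ltc4s, Ptgdr, Ptgdr2, Ptgfr, Tbxa2r, Ptger1 and Ttc33 were named after their values were seen.

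Alternatives were DESeq2 1.42.0, DESeq2 size factors, other filters, a threshold of 0.05, only the groups compared, a replicate block, 1 surrogate variable (sva 3.50.0), the early response mean as a covariate, and leaving out each library. The 12 libraries, a microglia marker covariate and a block within Card9 genotype were added after the data were seen. Libraries of the same number deviated from their group means together in 5xFAD against WT (r from 0.27 to 0.71) and in Card9-/-5xFAD against Card9-/- (0.13 to 0.73), where every pair was over 0.1 but the best match was the own number for 3 of 8 pairs. Across Card9 genotypes r ran from -0.64 to 0.49. The block within Card9 genotype rests on these correlations and not on the labels. No 2 libraries of a genotype agreed within sampling noise (chi-square per degree of freedom of 6.92 or more).

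Marker lists gave these counts averaged over Card9 genotypes, out of the genes tested: microglia 0 of 10, border macrophage 5 of 8 lower, monocyte 1 of 4 lower, neutrophil 2 of 8 lower, mast cell 0 of 1, T and NK cell 0 of 4, B cell 0 of 3, astrocyte 2 of 6 higher, oligodendrocyte 0 of 5, endothelial 1 of 6 lower, choroid and ependymal 0 of 5, neuron 0 of 2, early response 1 of 15 lower and disease-associated microglia 10 of 10 higher. Of all genes tested 11.3% passed there, 5.73% lower and 5.62% higher.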

Additional observations from a re-analysis of the deposited data

Results flagged for a closer look

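Among 56 sets of 4 libraries examined, 5 held a library far from the other 3 by Dixon's criterion, which chance alone gives in about 1 set in 20. Ptger4 reached 20.7 CPM in 5xFAD replicate 4, against 9.40 to 10.4 CPM in the other 5xFAD libraries. Hpgds was at 723.5 CPM in the same library, against 1015 to 1033 CPM. Ggt5 was at 32.1 CPM in Card9-/- replicate 4, against 46.8 to 48.1 CPM, and Ptgir was at 4.58 CPM in that library, against 1.18 to 1.61 CPM. Ptgir was at 2.31 CPM in WT replicate 2, against 1.41 to 1.54 CPM. Card9-/- replicate 4 is 1 of the 4 libraries with few microglia markers, whereas 5xFAD replicate 4 and WT replicate 2 are not.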

How the results depend on the processing

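No difference that passed its test changed sign under any alternative. Ptger3 and Ptgs2, chosen by their values in these libraries, are among the 9 genes counted below, and nothing is read from their calls. In both single transgene comparisons every call in the report among the 9 genes was of Ptger3 or Ptgs2. The number of the 9 genes passing in 5xFAD against WT, 2 in the report, was 1 with DESeq2 or edgeR fitted to the 2 groups of the comparison alone, with DESeq2 size factors or a threshold of 0.05, and 0 without a filter or with at least 10 counts in every library, which removes Ptger3 and Ptgs2. In Card9-/-5xFAD against Card9-/- it was 1 in the report, 2 with DESeq2 on all libraries, 1 surrogate variable, the 12 libraries or the microglia covariate, 3 with the replicate block within Card9 genotype and 0 with at least 10 counts in every library. Averaged over Card9 genotypes it was 3 in the report, 1 without a filter, with at least 10 counts in every library or at 0.05, 5 with the surrogate variable or the microglia covariate and 6 with the block within Card9 genotype. Of the further pathway genes, 1 passed in 5xFAD against WT, 0 with edgeR on the 2 groups alone or no filter, 5 with the surrogate variable, 4 in the 12 libraries, 7 with the block within Card9 genotype and 3 with the microglia covariate. In Card9-/-5xFAD against Card9-/- the count was 1, 2 with either DESeq2 fit, 0 with edgeR on the 2 groups alone, at least 10 counts in every library or 0.05, 8 with the surrogate variable, 6 in the 12 libraries, 12 with the block within Card9 genotype and 3 with the microglia covariate. Averaged it was 4, 7 with DESeq2, 15 with the surrogate variable, 13 in the 12 libraries, 14 with the block within Card9 genotype and 11 with the microglia covariate, where 11.3%, 16.8%, 39.1%, 34.5%, 41.9% and 30.1% of all genes passed in the same order. The share of all genes also rose in the single comparisons, from 2.09% to between 7.43% and 16% in 5xFAD against WT and from 1.97% to between 8.51% and 20.4% in Card9-/-5xFAD against Card9-/- under these last 4 settings. In the same order, DESeq2 on all libraries called 4.16% and 5.88% of all genes. On the 2 groups alone DESeq2 called 5.11% and 3.43%, and edgeR 2.22% and 0.708%. DESeq2 size factors gave 2.14% and 2.04%. Unfiltered data gave 0.694% and 0.618%. The filter of 10 counts per library gave 1.67% and 1.44%, and the 0.05 threshold 1.53% and 1.12%. Averaged over Card9 genotypes, the shares for unfiltered data, this filter and 0.05 were 3.57%, 11.2% and 6.34%. For the Card9 genotype averaged over transgenes the count of further pathway genes was 0, and 7 with the surrogate variable (4.55% of all genes). The replicate block over all 4 numbers moved none of these counts by more than 1.5 times. The block within Card9 genotype changed no other call. The cause of these shifts was not tested.

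Leaving out a single library gave 0 to 2 genes of the 9 and 0 to 2 further genes in 5xFAD against WT, 1 to 1 and 0 to 2 in Card9-/-5xFAD against Card9-/-, and 2 to 4 and 3 to 7 averaged over Card9 genotypes. The share of all genes passing moved as well, from 1.1% to 2.6%, from 0.804% to 4.84% and from 6.39% to 20.5% in the same order. The first count fell to 0 without WT replicate 2 or 3 or any single 5xFAD library, and stayed at 2 only without Card9-/- replicate 4 or Card9-/-5xFAD replicate 4. It counts Ptger3 and Ptgs2, the genes chosen from this comparison, so nothing is read from it. Ggt5 was lost in 5xFAD against WT without WT replicate 2 or 3 or any 5xFAD library, with an adjusted p of at most 0.168. Its log2 fold change stayed between -1.05 and -0.83. Ptgs2 with 5 to 15 reads in 5xFAD and Ptgir with 2 to 7 reads in transgenic libraries are limited by depth.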
